A study of Homo sapiens with 9 samples.

Results

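The cadherins other than E-cadherin and the catenin adaptors that bind cadherin tails were followed through a colorectal cancer cell line with and without an APC construct. Members were the rows of the deposited transcript counts named CDH2, CDH3, CDH11, CDH17, CDH24, CTNNA1, CTNNA2, CTNND1, CTNND2 or JUP. With 1 transcript per gene, the one with the highest total count over the 9 libraries, these were 10 of 20878 genes, or 35 of 39276 transcripts when each transcript was counted. Results of these data were known when the members were chosen. RNA sequencing was done on SW480, a human colorectal cancer line with defective APC, a protein that takes part in the breakdown of beta-catenin. The group called APC was the line D2.15, made from SW480 with the vector pEF-mycAPC and plated at 2 x 1e5 cells. The group called CONTROL was the line R38.7, made from SW480 with the empty vector pEF and plated at 3.35 x 1e5 cells, and the group called SW480 was the parental line, plated like CONTROL. Both derived lines were kept in G418 and the parental line was not, while serum, thioglycerol, hydrocortisone and insulin were common to the 3 groups. RNA was taken 72 h after plating from 3 plates per group, which gave 9 libraries.

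Each construct was represented by 1 derived line, so an effect of the construct and a property of that line cannot be told apart. The APC line also differed from the others in plating density, which cannot be told apart from the construct either. Both derived lines differed from SW480 in carrying a vector, in their derivation and in G418. In any comparison with SW480 these cannot be told apart. Plates of a line were the replicates, and the p-values therefore speak of spread between plates alone. In bulk RNA, fewer cells that express a gene and less RNA per cell cannot be told apart. Total counts over genes were 16456738 to 19358025 per library, and 3 counts, taken as the floor, corresponded to 0.156 to 0.184 CPM (the count scaled by the TMM-adjusted library size). APC transcript stood at 145 ± 5.0 CPM in APC cells, 47.9 ± 1.59 in CONTROL cells and 49.3 ± 2.46 in SW480 cells (SD, n = 3 each). The epithelial label was met by KRT8, at 2585 to 2971 CPM on average in the 3 groups, whereas the intestinal marker CDX1 had 1 count in all. Other epithelial and intestinal markers differed between lines. EPCAM, an epithelial adhesion gene, stood at 382 ± 15.9 CPM in APC cells, 42.4 ± 1.57 in CONTROL cells and 49.4 ± 1.16 in SW480 cells, and KRT19, a keratin gene, at 647 ± 41.6, 373 ± 7.72 and 786 ± 67.7 CPM. CDX2, a gene for an intestinal transcription factor, had 14.9 ± 0.650 CPM in APC cells, 24.7 ± 1.72 in CONTROL cells and 27.1 ± 2.02 in SW480 cells. The part of these differences in the members' levels was not tested. VIL1, a gene of the intestinal brush border, was low, at 4.62 ± 0.058 CPM in APC cells, 0.414 ± 0.208 in CONTROL cells and 0.304 ± 0.112 in SW480 cells.

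Cadherins are calcium-dependent adhesion molecules that join neighbouring cells by binding their like across the gap. In the cytoplasm p120-catenin (CTNND1) binds the tail near the membrane and keeps the cadherin at the surface, beta-catenin (CTNNB1) or plakoglobin (JUP) binds the far end of the tail, and alpha-catenin (CTNNA1) connects this complex to actin. Colonic epithelium relies on E-cadherin (CDH1), and cells that take on mesenchymal features often change which cadherin they use and which p120 isoform they make.

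In the APC line P-cadherin transcript was 24.7-fold higher than in CONTROL cells and 26.7-fold higher than in SW480 cells, plakoglobin 2.54-fold and 2.03-fold higher, and p120-catenin 1.36-fold and 1.23-fold higher. CDH24 was at 0.679 and alpha-catenin at 0.788 of the CONTROL level, and both were also below SW480. CDH11 stood between the other lines, above CONTROL and below SW480. All 6 members with enough counts to be tested differed in APC against CONTROL, 4 higher and 2 lower, where 70.2% of the 14255 genes tested were called (34.8% higher, 35.4% lower; called means an edgeR p under 0.05 after Benjamini-Hochberg adjustment over all genes). The 6 members also differed in APC against SW480, 3 higher and 3 lower, where 72.5% of genes were called (35.6% higher, 36.9% lower). In CONTROL against SW480, 3 members were lower in CONTROL, none was higher and 3 were not called, against 50.0% of genes called (25.3% higher, 24.7% lower). With shares this large called, counts of members show little, and the sizes of the changes say more. Called and over 1.5-fold were 3 members in APC against CONTROL (CDH3, CDH11 and JUP), where 30.6% of genes met this, the same 3 in APC against SW480, where 32.0% did, and CDH11 alone in CONTROL against SW480, where 11.6% did. The libraries of the groups did not overlap for 6 of 6 members in APC against CONTROL (73.4% of genes), 6 in APC against SW480 (73.1%) and 4 in CONTROL against SW480 (56.6%). The median log2 fold change of the 6 members was 0.89, 0.007 and -0.06 in APC against CONTROL, APC against SW480 and CONTROL against SW480, and that of all genes was -0.006, -0.013 and -0.006. The comparisons with the APC line share its libraries, so their values are given side by side and are not independent of each other.

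**Figure D1:**
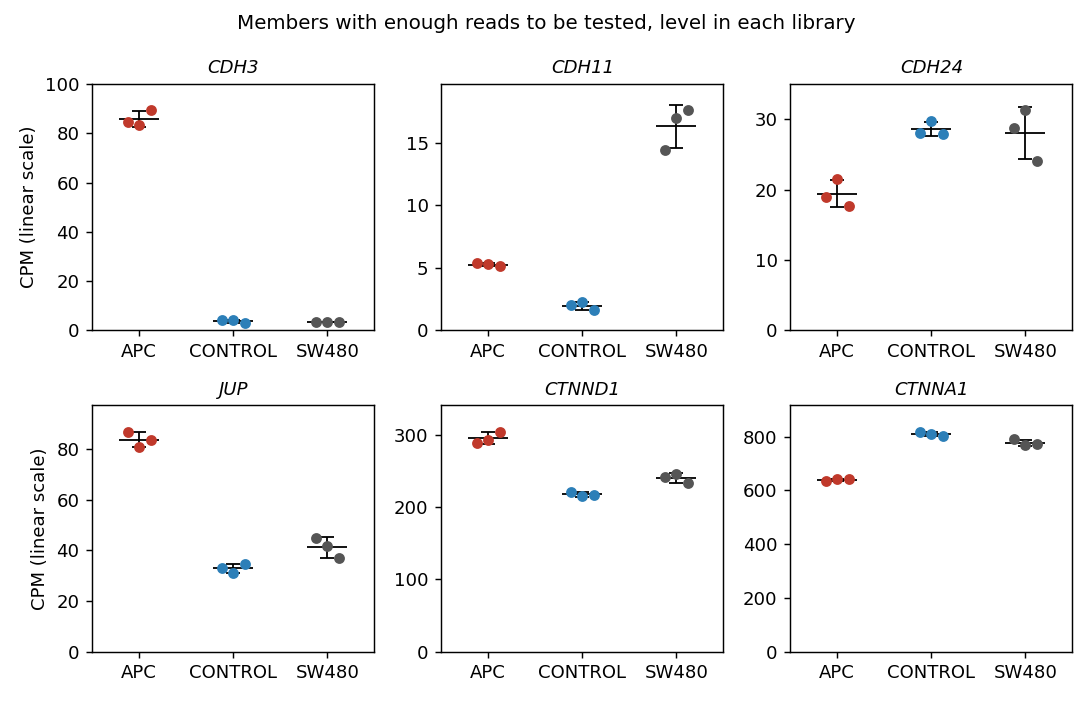
Level of the 6 members with enough reads to be tested, in CPM on a linear axis from 0, for the APC, CONTROL and SW480 libraries; each point is a library, and the bar and whiskers are the mean ± SD of 3. CDH3 and JUP are highest in all 3 APC libraries, CDH11 is highest in the 3 SW480 libraries, and CTNNA1 and CDH24 are lowest in the 3 APC libraries.

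CDH3 encodes P-cadherin, a classical cadherin of basal epithelial layers that is often found in carcinomas. It was measured at 84.7, 83.4 and 89.5 CPM in the APC libraries, 3.92, 3.87 and 2.70 CPM in CONTROL and 3.07, 3.22 and 3.33 CPM in SW480. Every APC library was above every library of the other lines, and CONTROL and SW480 overlapped. P-cadherin transcript in the APC line exceeded that of CONTROL 24.7-fold (log2 fold change 4.62 ± 0.08 SE, edgeR adjusted p = 1.57e-31) and that of SW480 26.7-fold (4.74 ± 0.08, edgeR adjusted p = 7.76e-32). Between CONTROL and SW480 the difference was 0.12 ± 0.15 and did not pass (edgeR adjusted p = 0.546). A larger change in either direction was measured for 1.73% of tested genes in APC against CONTROL and 1.59% in APC against SW480.

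The gene lies on chromosome 16 beside CDH1, the gene for E-cadherin. CDH1 stood at 133 ± 4.49 CPM in APC cells, 8.73 ± 1.59 in CONTROL cells and 7.23 ± 0.897 in SW480 cells, with log2 fold changes of 3.91 ± 0.07 against CONTROL and 4.20 ± 0.08 against SW480. On the other side of CDH3 the nearest tested gene was ZFP90, a zinc finger gene, which was lower in the APC line, at 11.2 CPM against 20.2 CPM in CONTROL and 18.4 CPM in SW480 (edgeR adjusted p = 3.78e-11 and 2.33e-09). The tested genes whose pattern over the 9 libraries lay nearest to that of CDH3 were SGPP2, a sphingosine phosphatase gene, and PLAU, the urokinase gene, at Euclidean distances of 0.362 and 0.597 between gene-centred log2 CPM values. PLAU averaged 286 CPM in APC cells, 12.2 in CONTROL cells and 8.97 in SW480 cells.

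CDH11 encodes cadherin-11, a type II cadherin of mesenchymal cells and osteoblasts. Its levels were 5.33, 5.26 and 5.09 CPM in the APC libraries, 1.99, 2.21 and 1.61 CPM in CONTROL and 14.4, 17.0 and 17.6 CPM in SW480. The 3 groups did not overlap, with the parental line on top and the vector line lowest. The APC line was 2.72-fold higher than CONTROL (log2 fold change 1.44 ± 0.16, edgeR adjusted p = 1.45e-09). Against SW480 the APC line was lower (-1.64 ± 0.10, edgeR adjusted p = 9.85e-16), by 3.12-fold. The largest of the 3 differences was between the lines without the APC construct, which differed in the empty vector, derivation and G418. CONTROL was 8.47-fold lower than SW480 (-3.08 ± 0.13, edgeR adjusted p = 1.1e-19), and 0.386% of tested genes had a larger change in that comparison. The direction of CDH11 in the APC line therefore depended on which line it was compared with. DPYSL3, a cytoskeletal regulator gene, and GNAI1, a G protein subunit gene, had the nearest patterns, at distances of 0.912 and 1.10, both highest in SW480 and lowest in CONTROL on average.

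CDH24 encodes cadherin-24, a type II cadherin that binds catenins. The APC libraries had 19.0, 21.5 and 17.7 CPM, CONTROL 28.1, 29.8 and 28.0 CPM and SW480 28.8, 31.4 and 24.1 CPM. All APC libraries were below all others, while CONTROL and SW480 overlapped. The log2 fold change was -0.56 ± 0.08 against CONTROL (edgeR adjusted p = 1.96e-06) and -0.53 ± 0.08 against SW480 (edgeR adjusted p = 3.66e-06), and 0.03 ± 0.08 in CONTROL against SW480, which did not pass (edgeR adjusted p = 0.805). An optional exon of CDH24, of 114 bases, had 1, 1 and 1 counts of its own in the APC libraries, 12, 6 and 2 in CONTROL and 3, 4 and 6 in SW480. These are too few for a firm comparison, and an exact permutation test of the shares gave p = 0.1 for the APC line against each other line, the smallest a two-sided test of 3 against 3 can give (0.18 adjusted over 27 tests of exons).

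The remaining cadherins of the list were close to absent. CDH2, the gene for N-cadherin, which is typical of neural and mesenchymal cells, had 0, 0 and 1 counts in the APC libraries, 0, 3 and 0 in CONTROL and 1, 0 and 0 in SW480. CDH17, the gene for LI-cadherin of intestinal epithelium, had 0, 1 and 0 counts in the APC libraries, 1, 0 and 3 in CONTROL and 1, 2 and 0 in SW480. Every library was at or under the floor of 3 counts for both genes, so neither was tested and no fold is given. A difference in CDH2 or CDH17 was not detectable at this depth.

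Levels per length show how the makeup of cadherin transcripts differed. The deposited RPKM values (read counts scaled by transcript length and by library reads) of CDH1 and the 5 member cadherins summed to 46.3, 47.5 and 49.3 in the APC libraries, 10.1, 9.99 and 9.62 in CONTROL and 13.0, 14.1 and 12.2 in SW480. The APC libraries were above all others by a wide gap, 4.81-fold over CONTROL and 3.64-fold over SW480 on average, and the SW480 libraries were above those of CONTROL. CDH3 made up 36.8 ± 0.704% of this sum in the APC line, 7.25 ± 1.27% in CONTROL and 5.14 ± 0.480% in SW480. CDH1 made up 50.5 ± 0.573%, 16.1 ± 3.00% and 10.3 ± 1.22% of the sum in the same 3 groups. CDH24, by contrast, held 10.0 ± 1.14% in the APC line, 71.6 ± 2.39% in CONTROL and 53.8 ± 3.73% in SW480, and CDH11 held 2.63 ± 0.123%, 4.71 ± 0.643% and 30.7 ± 4.11%. None of these shares of the 6-gene sum overlapped between lines, and the exact permutation test gave p = 0.1 for each (0.12 adjusted over 42 tests of this kind), its smallest possible value. A share also depends on the other genes of the sum, and CDH1 and CDH3 made the APC sum larger. The RPKM of CDH11 itself was higher in the APC line (1.25 ± 0.022) than in CONTROL (0.468 ± 0.073), although its share was lower. That of CDH24 was 4.78 ± 0.484 in the APC line and 7.10 ± 0.226 in CONTROL, a smaller step than in its share. CDH13, the gene for T-cadherin, which is anchored by a lipid and lacks a tail for catenins, is not among these 6 genes, and it had a deposited RPKM of 6.46 ± 0.331 in the APC line, 7.16 ± 0.220 in CONTROL and 5.54 ± 0.205 in SW480. With CDH13 in the sum, an alternative chosen after seeing the data, the sum of the APC line was 3.17-fold that of CONTROL and 2.91-fold that of SW480. CDH24 then held 8.84 ± 1.03% in the APC line, 41.6 ± 1.72% in CONTROL and 37.8 ± 3.72% in SW480, beside 11.9 ± 0.276%, 42.0 ± 0.602% and 29.8 ± 2.22% for CDH13 itself, and the CONTROL and SW480 libraries overlapped in the shares of CDH24, CDH1 and CDH3.

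**Figure D2:**
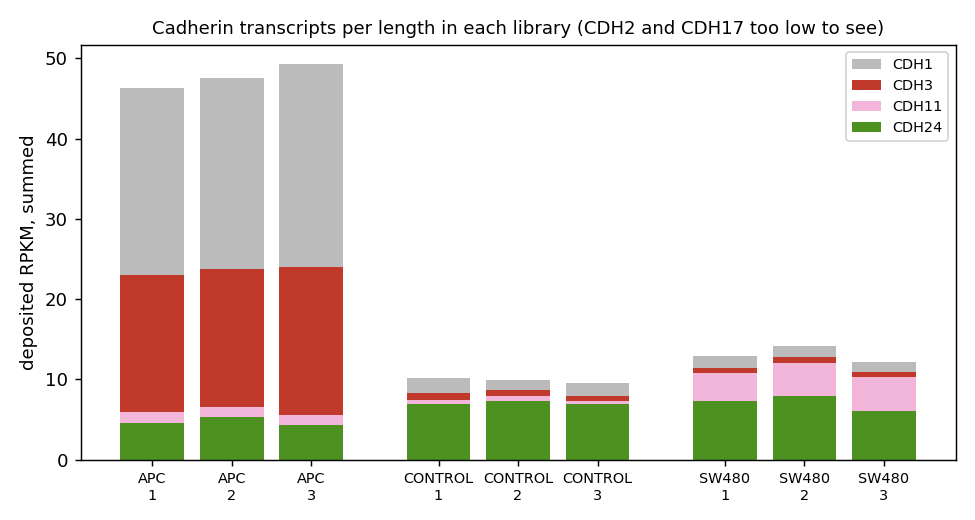
Summed deposited RPKM of CDH1 and the 5 member cadherins (without CDH13) in each library (linear axis from 0), stacked by gene, for the APC, CONTROL and SW480 libraries; CDH2 and CDH17 are too low to be seen. CDH1 and CDH3 fill most of the APC bars, at 46.3 to 49.3 RPKM in all, and CDH24 fills the largest part of the CONTROL and SW480 bars.

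JUP encodes plakoglobin, also called gamma-catenin, which takes the place of beta-catenin on cadherin tails and links desmosomal cadherins to intermediate filaments. It was measured at 86.8, 80.6 and 83.8 CPM in the APC libraries, 33.2, 31.02 and 34.5 CPM in CONTROL and 45.0, 41.8 and 36.9 CPM in SW480. The lowest APC library was well above the highest library of the other lines, and the CONTROL libraries were below those of SW480. JUP in the APC line exceeded the CONTROL level 2.54-fold (log2 fold change 1.35 ± 0.06, edgeR adjusted p = 1.07e-19) and the SW480 level 2.03-fold (1.02 ± 0.06, edgeR adjusted p = 6.25e-17). It was lower in CONTROL than in SW480 by a smaller step (-0.32 ± 0.06, edgeR adjusted p = 6.75e-05). The stretch that only the longer of the 2 deposited JUP transcripts holds took 5.83 ± 0.548% of JUP counts in APC cells, 4.97 ± 0.320% in CONTROL and 4.07 ± 1.03% in SW480 (exact permutation p = 0.1 for the APC line against each, its smallest value, and 0.18 adjusted over the 27 tests). ADAP1, a GTPase regulator gene, and ISG15, an interferon-induced gene, had the nearest patterns, at distances of 0.235 and 0.238.

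Beta-catenin, the relative of plakoglobin that shares its binding site on cadherins, went the other way. CTNNB1 stood at 429 ± 4.72 CPM in APC cells, 938 ± 20.3 in CONTROL cells and 1348 ± 52.5 in SW480 cells. Per length, the ratio of JUP to CTNNB1 RPKM was 0.217, 0.198 and 0.206 in the APC libraries, 0.0367, 0.0359 and 0.0389 in CONTROL and 0.0366, 0.0315 and 0.0293 in SW480. Plakoglobin transcript thus remained below beta-catenin transcript in all 9 libraries, and the ratio in APC cells was 5.57 times that in CONTROL and 6.38 times that in SW480, with no overlap (exact permutation p = 0.1 for each, 0.12 adjusted over the 42 tests). CONTROL and SW480 overlapped in this ratio (exact permutation p = 0.2).

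After CDH1 and JUP had been seen to be higher in the APC line, the listed starts of the members were searched. The motif was CACCTG, the E-box to which the repressors of CDH1 bind. The RefSeq promoter table (GRCh38.p14) matched 5 of the 10 members with 14 start sites, each read over 250 bases before the start on both strands. The 5 were CDH2, CTNNA1, CTNNA2, CTNND2 and JUP, so CDH3, CDH11, CDH17, CDH24 and CTNND1 were not read. Of the 14 windows 1, at the start of JUP that lies further downstream, held the motif, and it held 2 copies on opposite strands. The 30-base stretch that carries them is shown because it is the sole match among the 5 members read. It lies on the minus strand at chr17:41786007-41786036, 60 to 31 bases before that start, and capitals mark the motif and its reverse complement.
JUP promoter stretch: tggcccCACCTGccgagCAGGTGagcgcac
Of 35116 windows of the same length in the table, 17.5% held the motif at least 1 time and 2.53% at least 2 times. The 1 of 14 windows of the members was thus a smaller share than that of all windows. A match describes the letters and says nothing about binding. ZEB1, a gene for a repressor of CDH1 that was looked up after its value was known, stood at 8.08 ± 1.21 CPM in APC cells, 43.0 ± 2.78 in CONTROL cells and 43.5 ± 0.574 in SW480 cells, and its part in the level of JUP was not tested.

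CTNNA1 encodes alpha-catenin of epithelial cells. The APC libraries had 633, 640 and 642 CPM, CONTROL 818, 810 and 803 CPM and SW480 789, 767 and 771 CPM. No group overlapped another, with the APC line lowest and CONTROL slightly above SW480. The log2 fold change was -0.34 ± 0.04 against CONTROL (edgeR adjusted p = 1.47e-10) and -0.28 ± 0.04 against SW480 (edgeR adjusted p = 1.15e-08), and 0.06 ± 0.03 in CONTROL against SW480, which did not pass (edgeR adjusted p = 0.139). About as many genes changed more as changed less, since 49.6% of tested genes had a larger change in APC against CONTROL and 57.7% in APC against SW480. DCAF7 and NCAPG2, genes of a scaffold protein and a condensin subunit, had the nearest patterns, at distances of 0.0729 and 0.0744.

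The neural relatives were not expressed at a level these libraries could measure. CTNNA2, the gene for alpha-catenin of neurons, had 1 count in the APC line, 0 in CONTROL and 2 in SW480, each summed over 3 libraries. CTNND2, the gene for the neural delta-catenin, had 0 counts in all 9 libraries, which allows up to 3 counts per library.

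CTNND1 encodes p120-catenin. It was measured at 288, 292 and 304 CPM in the APC libraries, 221, 215 and 216 CPM in CONTROL and 242, 246 and 233 CPM in SW480. The 3 lines did not overlap, with the APC line highest and CONTROL lowest. The log2 fold change was 0.44 ± 0.04 against CONTROL (edgeR adjusted p = 1.03e-12), 0.30 ± 0.04 against SW480 (edgeR adjusted p = 8.88e-09) and -0.14 ± 0.04 in CONTROL against SW480 (edgeR adjusted p = 0.0014). The nearest pattern was that of TMX2-CTNND1, a read-through gene that contains CTNND1, so its counts cannot be told apart from those of CTNND1. PRKAR1A, a protein kinase A subunit gene, came next at a distance of 0.115.

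With edgeR's test against a minimum change of 1.5-fold, the calls of CDH24, CTNNA1 and CTNND1 no longer passed in either comparison with the APC line, nor did those of CTNND1 and JUP between CONTROL and SW480. With limma on log2(RPKM + 1), whose pseudocount lowers the change of low genes, CDH3 and CDH11 exceeded CONTROL by 3.43 and 0.62 on the log2 scale in the APC line, where edgeR gave 4.62 and 1.44.

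**Figure D3:**
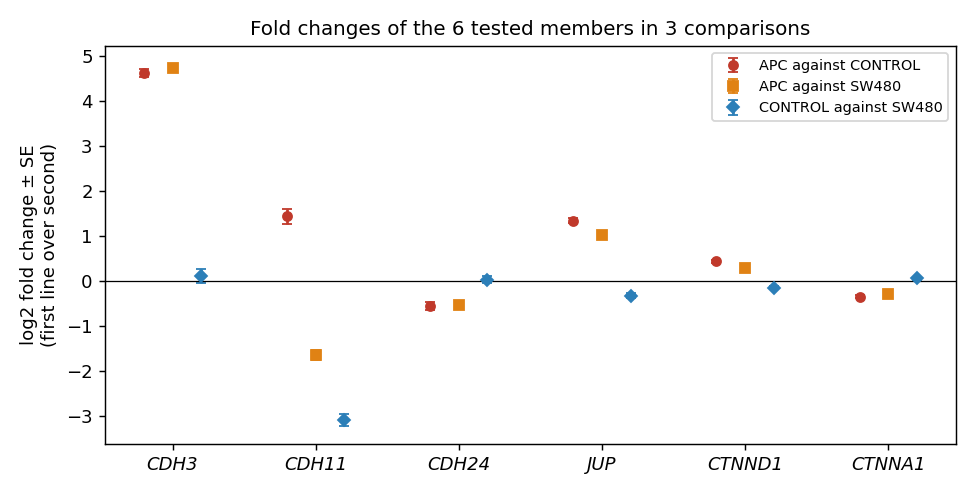
Log2 fold change ± SE (edgeR) of the 6 tested members in APC against CONTROL, APC against SW480 and CONTROL against SW480, with 0 as the line of no change. CDH3 lies above 4.6 in both comparisons with the APC line and near 0 between the other lines, and CDH11 is the one member on opposite sides of 0 in the comparisons with the APC line.

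CTNND1 is best known for its isoforms, which differ by the start codon used. The long isoform, typical of mesenchymal cells, begins at the first start, and the shorter isoform of epithelial cells begins at a later one. The 22 deposited transcripts of CTNND1 differ by optional exons, and 21 of them matched a GENCODE 29 structure in length to within a constant of 37 bases. In those structures 6 transcripts start at codon 1 of the longest reading frame, 7 at codon 55 and 8 at codon 102, all in the same frame. The first pair of starts lies in exon 3 and the last in exon 5, numbered along the transcript with the most counts. Both exons are shown from the GENCODE 29 transcript (GRCh38, plus strand), exon 3 from the first start codon at chr11:57791479-57791673 and exon 5 whole at chr11:57795577-57795729, with the start codons in capitals.
CTNND1 exon 3 from the first start codon: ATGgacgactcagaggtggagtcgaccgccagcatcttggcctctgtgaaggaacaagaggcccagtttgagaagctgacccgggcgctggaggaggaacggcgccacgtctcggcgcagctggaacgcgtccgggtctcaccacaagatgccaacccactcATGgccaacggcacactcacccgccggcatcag
CTNND1 exon 5: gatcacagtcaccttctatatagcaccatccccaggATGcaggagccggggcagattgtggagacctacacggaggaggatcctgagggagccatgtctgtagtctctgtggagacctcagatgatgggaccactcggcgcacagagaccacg
A transcript without exon 3 lacks both early starts and keeps the one in exon 5.

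Transcripts that differ by 1 exon also differ in their deposited counts by the reads lying in that exon alone, so this difference was read as the exon's own counts. It was examined after the totals had been seen. Reads that cross into a neighbouring exon appear to count for both transcripts, so the difference may understate how much an exon is used, and the counting method is not given in the sources used here. Each share below is of the 3495 to 5243 counts of CTNND1 in a library, and the intervals (exact, 95%) cover counting error only.

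The exon that holds the early starts was little used in the APC line. Exons 2 and 3 together had 13, 14 and 16 counts of their own in the APC libraries, 126, 82 and 87 in CONTROL and 129, 135 and 112 in SW480. As shares of CTNND1 counts these were 0.278 ± 0.030% in the APC line, 2.5 ± 0.50% in CONTROL and 2.80 ± 0.191% in SW480 (SD, n = 3 each). The APC libraries were below all others without overlap, while CONTROL and SW480 overlapped. The share was 9.01-fold higher in CONTROL and 10.1-fold higher in SW480 than in the APC line (exact permutation p = 0.1 for each, the smallest possible, and 0.18 adjusted over 27 tests of exons), although the whole gene was higher in the APC line. Between CONTROL and SW480 the test gave an exact permutation p of 0.4.

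Exon 3 alone, of 289 bases, had 0.265 ± 0.038% of CTNND1 counts in the APC line, 1.73 ± 0.324% in CONTROL and 1.97 ± 0.183% in SW480. Exon 2, of 119 bases, had 0, 2 and 0 counts in the APC libraries, 41, 22 and 28 in CONTROL and 39, 37 and 35 in SW480. For the APC libraries at 0, the exact interval reaches up to 0.0703% and 0.0709%, and the lowest share in any other library was 0.630%, with an interval of 0.395% to 0.952%. A shorter form of exon 3, of 180 bases, lies within it and had 5, 7 and 5 counts in the APC libraries, 27, 17 and 20 in CONTROL and 40, 32 and 38 in SW480, so it is not a separate measure. In the next optional exons the groups came closer. Exon 4, of 72 bases, held 1.20 ± 0.230% in the APC line, 0.816 ± 0.142% in CONTROL and 1.09 ± 0.171% in SW480, and an exon of 63 bases held 1.58 ± 0.076%, 1.71 ± 0.201% and 1.62 ± 0.082%. The APC line overlapped both other lines for each of these exons. An exon of 87 bases had 1 to 5 counts in every library, too few to compare, and an exon of 18 bases had no count of its own in any.

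**Figure D4:**
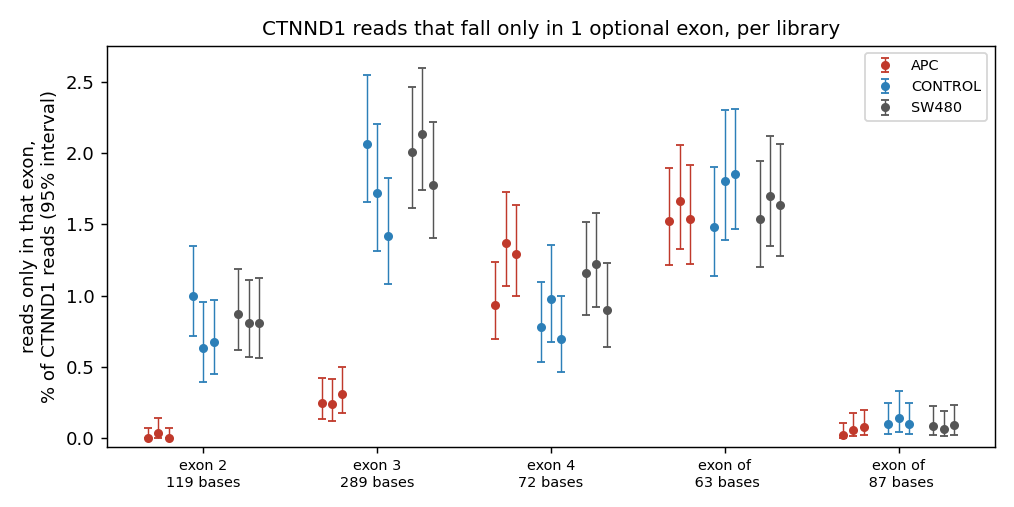
Counts that fall only in 1 optional exon of CTNND1, as a percentage of the CTNND1 counts of each library (linear axis), for the APC, CONTROL and SW480 libraries; points are libraries and whiskers are exact 95% counting intervals. In exons 2 and 3 all APC points lie below 0.4% and all other points above 0.6%, whereas the groups overlap in exon 4 and in the exon of 63 bases.

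ESRP1 and ESRP2 encode epithelial splicing regulators that are known to act on CTNND1, and their levels were looked up after the exon counts were seen. ESRP1 stood at 88.2 ± 2.70 CPM in APC cells, 3.32 ± 0.306 in CONTROL cells and 1.36 ± 0.352 in SW480 cells. ESRP2 stood at 63.5 ± 3.67 CPM in APC cells, 28.1 ± 1.21 in CONTROL cells and 25.8 ± 1.57 in SW480 cells. Both were higher in every APC library than in any other, and their part in the exon counts was not tested.

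CTNNA1 had the highest RPKM of the members, followed by CTNND1 and then JUP in each line. In the APC line CTNNA1 was 3.11 ± 0.054 times the 6-gene cadherin sum, against 19.2 ± 0.350 times in CONTROL and 14.1 ± 1.06 times in SW480. CTNND1 was 0.851 ± 0.004 times that sum in the APC line, 3.04 ± 0.072 times in CONTROL and 2.59 ± 0.116 times in SW480, so it was below the sum in APC cells and above it in the other lines. JUP was below the sum in every line, at 0.438 ± 0.021 times in the APC line, 0.834 ± 0.062 times in CONTROL and 0.803 ± 0.072 times in SW480. Neither the ratio of CTNNA1 nor that of CTNND1 overlapped between lines (exact permutation p = 0.1, its smallest value, and 0.12 adjusted over the 42 tests). CTNND1 and JUP were themselves higher in the APC line, so their lower ratios there reflect the larger cadherin sum. Adding CDH13 to the sum, after seeing the data, gave CTNND1 ratios of 0.749 ± 0.003 in APC, 1.765 ± 0.027 in CONTROL and 1.815 ± 0.043 in SW480. CONTROL and SW480 then overlapped in the CTNND1 ratio.

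Genes of the surrounding pathway were read from lists that were written with earlier results of these data known. Their counts stand beside the shares over all tested genes, 34.8% higher and 35.4% lower in APC against CONTROL and 35.6% higher and 36.9% lower in APC against SW480, with all-gene medians of -0.006 and -0.013 on the log2 scale. No test of a list against all genes was run. Genes described above are counted again here, CDH1 and CDH13 in the cadherin family and CTNNB1 among the partners of the catenins. Of 35 genes of the wider cadherin family, 29 were in the count table and 14 were tested. In the APC line 3 of them were higher and 10 lower than in CONTROL, and 3 were higher and 10 lower than in SW480, with median log2 fold changes of -0.59 and -0.99. Between CONTROL and SW480, 5 were higher and 7 lower, where 25.3% of all genes were higher and 24.7% lower. CLSTN1, the gene for calsyntenin-1 of the cadherin superfamily, was higher in the APC line, at 211 ± 3.24 CPM against 105 ± 3.19 CPM in CONTROL and 122 ± 5.18 CPM in SW480. CLSTN2, its relative, was lower, at 14.1 ± 0.735 CPM against 60.01 ± 0.812 CPM in CONTROL and 51.9 ± 3.72 CPM in SW480. CDH23, a cadherin gene known for hair cells of the inner ear, was also lower, at 2.13 ± 0.062 CPM against 17.0 ± 0.957 CPM in CONTROL and 13.7 ± 0.978 CPM in SW480.

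Of 12 tested partners of the catenins, 2 were higher and 8 lower against CONTROL, and 4 were higher and 4 lower against SW480 (median log2 fold changes -0.16 and -0.05). CTNNBIP1, the gene for an inhibitor that keeps beta-catenin from its transcription partners, in APC cells was 4.55 times the CONTROL level and 5.05 times the SW480 level. KIFC3, a motor protein gene that acts at adherens junctions, was 1.58-fold and 1.81-fold higher in the same comparisons. FYN, the gene for a kinase of junction proteins, was lower, at 41.2 ± 1.61 CPM in APC cells, 75.8 ± 4.08 in CONTROL cells and 55.6 ± 0.625 in SW480 cells.

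Of 14 tested linkers to actin, 7 were higher and 6 lower against CONTROL, and 6 were higher and 7 lower against SW480 (medians 0.14 and -0.05). VCL, the gene for vinculin, which binds alpha-catenin under tension, had 338 ± 7.32 CPM in APC cells, 208 ± 3.56 in CONTROL cells and 187 ± 5.53 in SW480 cells. LIMA1, the gene for the actin cross-linker EPLIN, was 2.36-fold higher than in CONTROL and 3.17-fold higher than in SW480. PVRL1 and TJP1, the genes for nectin-1 and ZO-1, were lower in the APC line, with log2 fold changes against CONTROL of -1.18 ± 0.05 and -0.84 ± 0.04.

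Genes of cadherin shedding gave 6 higher and 3 lower of 10 tested against CONTROL, and 4 higher and 3 lower against SW480 (medians 0.11 and 0.003). ADAM10, the main sheddase of E-cadherin, was 1.35-fold higher than in CONTROL and 1.38-fold higher than in SW480. PSENEN, a gamma-secretase subunit gene, was 1.41-fold and 1.34-fold higher. MMP14, a membrane metalloprotease gene, was lower, at 23.1 ± 0.474 CPM in APC cells against 55.4 ± 4.59 in CONTROL cells and 57.5 ± 1.33 in SW480 cells, and PSEN2, the gene for presenilin-2, was lower by a smaller step (-0.31 ± 0.07 against CONTROL and -0.23 ± 0.07 against SW480).

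Desmosomal partners of JUP gave 3 higher and 2 lower of 6 tested in both comparisons with the APC line (medians 0.57 and 0.69). DSG2, the gene for desmoglein-2, stood at 60.3 ± 2.53 CPM in APC cells, 28.5 ± 1.76 in CONTROL cells and 22.2 ± 1.59 in SW480 cells. DSC2, the gene for desmocollin-2, had 45, 45 and 46 counts in the APC libraries, 0, 0 and 0 in CONTROL and 0, 2 and 1 in SW480. The desmosomal plaque genes PKP1 and PKP2, for plakophilins, were lower, with log2 fold changes against CONTROL of -1.52 ± 0.24 and -0.13 ± 0.04. PKP3, another plakophilin gene, went the other way, at 177 ± 16.4 CPM in APC cells, 48.2 ± 1.65 in CONTROL cells and 56.6 ± 6.54 in SW480 cells. Every gene named from these lists passed the edgeR test in both comparisons with the APC line, as the rule for naming them required. PKP3 and CDH13 were added outside this rule and passed as well. CDH13 was lower in the APC line than in CONTROL (log2 fold change -0.14) and higher than in SW480 (0.25).

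Other cell types were looked for through marker sums. Neural markers, summed over 6 genes, were 26.4 to 30.9 CPM in the APC libraries, 78.0 to 85.0 CPM in CONTROL and 122 to 138 CPM in SW480, most of it TUBB3, a tubulin gene. Leukocyte markers, of which 4 of 5 were in the table, summed to 7.15 to 7.98 CPM in the APC libraries, 4.99 to 6.14 CPM in CONTROL and 4.72 to 5.53 CPM in SW480. Fibroblast markers, of which 4 of 6 were in the table, summed to 11.7 to 13.0 CPM in the APC libraries, 12.8 to 15.8 CPM in CONTROL and 16.4 to 18.3 CPM in SW480, and endothelial markers summed to 0.645 to 1.46 CPM over the 9 libraries. PTPRC, a defining marker of leukocytes, and COL3A1 and DCN, defining markers of fibroblasts, had no row among the counts used here. PDGFRB, a mesenchymal receptor gene of the fibroblast list, had 1, 1 and 2 counts in the APC libraries, 55, 51 and 66 in CONTROL and 77, 80 and 61 in SW480. CDH11, a mesenchymal cadherin, was highest where the fibroblast sum was highest, in SW480. Between APC and CONTROL, CDH11 was 2.72-fold higher in APC cells. The fibroblast sums of these lines overlapped, at 11.7 to 13.0 CPM in APC cells and 12.8 to 15.8 in CONTROL cells. Genes of this sum differed in direction, and PDGFRB was lower in APC cells. COL1A1, a collagen gene that made up most of the sum, was on average highest in SW480 and lowest in CONTROL, like CDH11. The COL1A1 difference between APC and CONTROL did not pass (log2 fold change 0.147, edgeR adjusted p = 0.154). Nor did that between APC and SW480 (-0.097, edgeR adjusted p = 0.332). COL1A2, another collagen gene of the list, had 1 count in APC, 1 in CONTROL and 17 in SW480, each summed over 3 libraries. LUM, also of the list, had 2, 0 and 0 counts in the same order. The part of fibroblasts in the level of CDH11 was not tested.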

How the data were processed

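Messenger RNA was measured in 9 libraries, 3 for each of APC, CONTROL and SW480, grouped by the sample titles. The deposited counts are whole numbers of reads per RefSeq transcript, not normalised, per the file headers. RPKM as deposited by the authors equals each count divided by transcript length and a library constant. Per the submitters' processing notes, Trimmomatic, TopHat and GATK were used, with build hg19; the counting tool is not given in the sources used here. Most symbols that a spreadsheet had turned to dates were restored by accession.

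The members and lists were chosen with earlier results of these data known. For each gene the transcript with the highest total count was used. Counts were scaled by TMM, filtered with filterByExpr and tested by glmQLFTest after a robust glmQLFit of all 9 libraries (edgeR 4.0.16, R 4.3.3), which left 14255 genes with a biological coefficient of variation of 3.56%, with Benjamini-Hochberg adjustment of p and a threshold of 0.05. Each SE was derived from the log2 fold change and its F statistic. Shares, ratios and sums were compared by two-sided exact permutation of 3 against 3 libraries. Replicate libraries were compared by chi-square per degree of freedom, which was 1.34 to 5.38, above sampling noise, and each plate was counted as 1 sample.

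Genes named besides the members were CDH1, CTNNB1 and APC, up to 2 per direction from each list by adjusted p among those called alike in both comparisons with APC, and the 2 genes with the nearest pattern per member. The nearest tested neighbours of all called members were looked up, but only those of CDH3 are described. Some genes of the cell type marker lists were also named, without a rule. ESRP1, ESRP2, ZEB1, PKP3, the sums with CDH13 and the exon counts of CTNND1 were added after values were seen. Tried as alternatives were limma 3.58.1 on log2 RPKM, DESeq2 1.42.0, an unfiltered fit, RLE factors, each gene's transcript with the lowest count, fits restricted to 6 libraries, a minimum change of 1.5-fold, a block for the replicate number and the removal of each library in turn.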

Additional observations from a re-analysis of the deposited data

How the results depend on the processing

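The direction and the call of each tested member held in most settings: of 324 log2 fold changes recomputed, 314 kept both, 8 kept the direction but no longer passed and 2 reversed. The 8 came from the minimum change of 1.5-fold, which left 3364 genes called in APC against CONTROL, 3501 in APC against SW480 and 668 in CONTROL against SW480, and 0, 1 and 1 members lower; it asks for larger changes by construction. The reversals were of CDH24 in CONTROL against SW480, which was not called: -0.0011 without CONTROL replicate 2 and -0.0714 without SW480 replicate 3, within a range up to 0.1132. Without 1 library at a time, 9449 to 10262, 9916 to 10389 and 6185 to 7299 genes were called in the 3 comparisons. With the replicate block 9993, 10297 and 7109 genes were called and each member count was as before. Replicate numbers did not pair the libraries, since deviations of same-numbered libraries correlated at -0.074 to 0.097 and not every library correlated best with its own number. The exon counts, the cadherin sum and the ratio of JUP to CTNNB1 were recomputed without each library as alternatives chosen after seeing the data; the share of exons 2 and 3 in APC minus CONTROL lay between -2.43 and -1.94 percentage points. Depth limits what can be said of CDH2, CDH17, CTNNA2, CTNND2 and the short exons of CTNND1 and CDH24.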
